A study of Mus musculus with 9 samples.

Results

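The genes described here encode 9 membrane proteins tied to the transport of iron, glycine, glutathione, porphyrins or haem. They were taken by their symbols from a table of 24391 genes: Slc25a37, Slc25a28, Slc25a38, Slc25a39, Abcb10, Tmem14c, Abcb6, Abcg2 and Flvcr1, the last listed under its synonym Mfsd7b. Another 32 of 42114 entries in a table of dREG peaks, which mark promoters and enhancers by their nascent transcripts, name 1 of these genes as overlapping or regulatory and come from 23 peaks. An entry is a whole peak or 1 strand of a peak. All 9 genes and 31 of the 32 entries passed the filter on low counts.

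PRO-seq maps RNA polymerase that is transcribing at the time of harvest, and here it was run on mouse erythroid cells grown with epoetin and kit ligand. G1E-ER4 cells are G1E cells that express GATA1-ER, a fusion of the erythroid transcription factor GATA1 with an oestrogen receptor, which estradiol switches on. The groups were G1E-ER4 without estradiol (0 h, n = 3), after 13 h in 100 nM estradiol (n = 2) and after 24 h in 100 nM estradiol (n = 2), and the parental line G1E without estradiol (n = 2). G1E lacks working GATA1, so all 4 groups share that defect, and G1E-ER4 carries the fusion in addition. All values come from these cultured lines and not from red cells of an animal. The labels do not say that replicates were separate cultures, so p-values measure only the spread between these libraries.

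Haem is assembled partly in mitochondria and partly in the cytosol, so iron, glycine and porphyrin intermediates have to cross membranes. In developing red cells, mitoferrin-1 (Slc25a37) carries iron over the inner mitochondrial membrane, and Slc25a38 brings in glycine for the opening step of the pathway. Mitoferrin-2 (Slc25a28) is a broadly expressed relative of mitoferrin-1 that also carries iron over that membrane. Tmem14c is needed for the movement of a late porphyrin intermediate, Abcb10 is an inner-membrane ABC transporter known to bind mitoferrin-1, Abcb6 is a porphyrin transporter, Slc25a39 imports glutathione into mitochondria, and Abcg2 and Flvcr1 act at the cell surface, where Abcg2 exports porphyrins among other substrates and Flvcr1 is known as a haem exporter. The set is therefore wider than mitochondrial iron and porphyrin transport.

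The 250 bases before the start are shown for the gene with the largest rise (Abcb10), another early riser (Tmem14c), the mitoferrin that passed no test (Slc25a28) and a pair of Abcg2 starts in RefSeq whose spacing is compared below with that of 2 Abcg2 peaks. The sequences are from RefSeq, build GRCm38.p6, at chr8:123983123-123983372 on the minus strand, chr13:41016000-41016249 on the plus strand, chr19:43674882-43675131 on the minus strand, and chr6:58596422-58596671 and chr6:58640296-58640545 on the plus strand. Capitals mark matches to CACCC or CCGCCC on either strand, and all end at the base before the start.
Abcb10: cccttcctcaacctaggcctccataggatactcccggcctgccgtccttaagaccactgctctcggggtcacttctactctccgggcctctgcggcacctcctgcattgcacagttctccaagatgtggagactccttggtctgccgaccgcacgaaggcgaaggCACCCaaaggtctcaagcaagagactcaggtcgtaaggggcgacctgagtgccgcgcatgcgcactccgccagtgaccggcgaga
Tmem14c: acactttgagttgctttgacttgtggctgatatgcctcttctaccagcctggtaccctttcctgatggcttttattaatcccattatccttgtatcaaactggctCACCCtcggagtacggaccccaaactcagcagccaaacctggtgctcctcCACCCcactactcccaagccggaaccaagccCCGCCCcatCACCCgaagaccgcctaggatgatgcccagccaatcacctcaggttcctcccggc
Slc25a28: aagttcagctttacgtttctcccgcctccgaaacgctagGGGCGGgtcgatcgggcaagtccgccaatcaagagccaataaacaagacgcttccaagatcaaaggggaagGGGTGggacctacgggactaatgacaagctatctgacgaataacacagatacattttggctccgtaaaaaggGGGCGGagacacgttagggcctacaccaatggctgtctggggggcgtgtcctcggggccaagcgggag
Abcg2 start 2: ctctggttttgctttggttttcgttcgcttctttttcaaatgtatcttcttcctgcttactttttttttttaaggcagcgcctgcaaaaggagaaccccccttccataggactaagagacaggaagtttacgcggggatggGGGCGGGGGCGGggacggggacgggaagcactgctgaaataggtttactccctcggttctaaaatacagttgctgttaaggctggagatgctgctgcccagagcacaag
Abcg2 start 3: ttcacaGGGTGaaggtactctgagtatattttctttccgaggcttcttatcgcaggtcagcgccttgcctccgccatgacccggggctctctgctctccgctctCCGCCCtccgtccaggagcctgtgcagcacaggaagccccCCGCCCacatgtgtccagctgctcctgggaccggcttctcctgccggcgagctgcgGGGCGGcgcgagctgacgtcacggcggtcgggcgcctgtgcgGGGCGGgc
RefSeq gave 10 such windows for 8 of the 9 genes. The GATA-type motif AGATAA was in none of the 10 windows, against 9.99% of 32851 windows of all genes, and CCACACCC, a form bound by Krüppel-like factors, was also in none, against 3.20% of all windows. CACCC occurs in 52.0% and CCGCCC in 32.7% of all windows. Tmem14c had 3 CACCC matches and 1 CCGCCC match, Slc25a28 had 1 and 2, Abcb10 had 1 and none, Abcg2 start 2 had none and 2, and Abcg2 start 3 had 1 and 4. GC content ran from 41.6% at Slc25a38 to 77.2% at Slc25a39 over the 10 windows, with 67.6% at Abcg2 start 3, against a median of 52.4% over all windows. A match or its lack describes only these letters in this window.

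Total gene-body reads ran from 37830789 to 139945759 per library and dREG reads from 15394427 to 59952454. Values below are CPM, read counts scaled to library size by TMM. Changes are log2 folds ± standard error (SE), and adjusted p-values come from edgeR's quasi-likelihood test over all genes or all dREG entries, with a threshold of 0.05 for a call. The summed level of 7 erythroid markers was 295 to 383 CPM at 0 h, 1140 to 1175 CPM at 13 h, 2445 to 3047 CPM at 24 h and 359 to 495 CPM in G1E. Tfrc made up most of that sum at 0 h (233 to 315 CPM). Epor lay lower at 13 h (14.2 to 19.6 CPM) than at 0 h (20.2 to 24.8 CPM), and the rest lay higher. The sum of 6 mast cell and basophil markers, with Mcpt8 at 0 in every library, was 34.9 to 81.9 CPM at 0 h, 0.257 to 0.258 CPM at 13 h, 0.0496 to 0.0670 CPM at 24 h and 29.1 to 53.5 CPM in G1E. Most of the mast cell and basophil sum was Cpa3 at 0 h (33.2 to 76.6 CPM) and in G1E (28.9 to 53.2 CPM). The part of these marker shifts in the results below was not tested, and in bulk cells fewer cells of a type and less RNA per cell cannot be told apart. Sums of 6 granulocyte and monocyte markers and of 5 lymphocyte markers were at most 0.339 and 1.54 CPM, while 6 megakaryocyte markers summed to 22.9 to 51.5 CPM. Gata1 itself was at 188 to 257 CPM at 0 h and at 164 and 214 CPM in G1E, and these gene-body reads do not check the label, since the altered part of the gene in G1E is not given.

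Transcription of most of these genes rose during maturation. At 13 h, 5 of the 9 genes were higher and 1 was lower than at 0 h, where 20.1% of all 13825 tested genes were called higher and 20.9% lower. At 24 h, 7 were higher and none lower than at 0 h, where 29.0% of all tested genes were called higher and 30.7% lower. The median log2 change of the 9 was 0.96 at 13 h and 1.34 at 24 h, beside -0.02 and -0.07 over all tested genes. Both comparisons share the 0 h libraries. Abcb10, Tmem14c, Slc25a37, Slc25a38 and Abcg2 were called higher at both times, Abcb6 and Flvcr1 at 24 h, Slc25a39 was called lower at 13 h, and Slc25a28 was not called at either time.

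**Figure D1:**
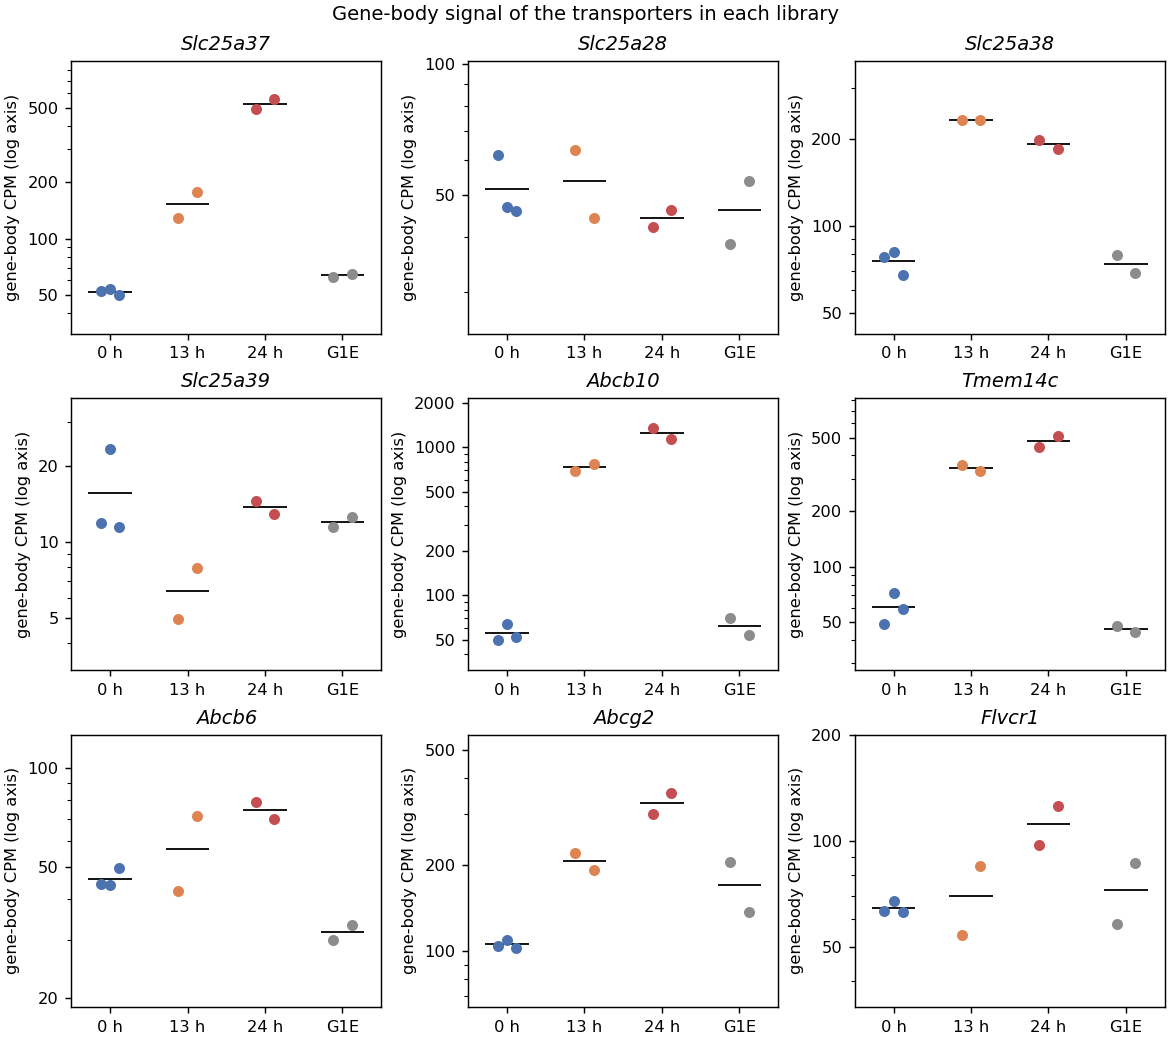
Gene-body CPM on a log axis for each library (points) and the mean of each group (lines) after 0 h, 13 h and 24 h of estradiol in G1E-ER4 cells and in untreated G1E cells. Abcb10 reached 1134 and 1346 CPM at 24 h, while all Slc25a28 libraries stayed between 38.5 and 63.4 CPM.

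Of the mitoferrins, Slc25a37 rose at both times and Slc25a28 was not called. Slc25a37 had 52.4, 53.9 and 49.6 CPM at 0 h, 129 and 179 CPM at 13 h, 496 and 558 CPM at 24 h, and 62.4 and 65.0 CPM in G1E. The 3 time groups were in ascending order without overlap, and G1E lay just above 0 h. The gain over 0 h was 1.57 ± 0.14 at 13 h (adjusted p = 3.62e-05) and 3.34 ± 0.15 at 24 h (adjusted p = 2.99e-07), a 10.1-fold level. Between 13 h and 24 h it gained another 1.78 ± 0.16 (adjusted p = 0.000670), so 46.9% of the log2 change at 24 h was in place at 13 h. Slc25a28 had 61.9, 47.0 and 46.0 CPM at 0 h, 63.4 and 44.3 CPM at 13 h, 42.2 and 46.3 CPM at 24 h, and 38.5 and 53.7 CPM in G1E. Its groups overlapped at every time, and its log2 differences from 0 h were 0.06 ± 0.21 at 13 h and -0.22 ± 0.21 at 24 h (adjusted p = 0.842 and 0.394). Scaling by total counts in place of TMM gave Slc25a28 a called decrease at 24 h (-0.62, adjusted p = 0.0421), a setting that moved the median of all genes to -0.45.

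The ratio of the mitoferrins within a library needs no scaling between libraries. The log2 ratio of Slc25a37 to Slc25a28 reads was -0.24, 0.20 and 0.11 at 0 h, 1.03 and 2.01 at 13 h, and 3.55 and 3.59 at 24 h. All 4 estradiol libraries lay above all 3 libraries of 0 h, by 2.52 on average. In a two-sided exact permutation test over 35 splits this gave p = 0.0571, which after adjustment over 3 such ratios was 0.0571 and did not pass. The ratio of the inner-membrane transporter Abcb10 to its relative Abcb6 was 3.63 higher on the log2 scale (p = 0.0286 in the exact test, the smallest the design allows, adjusted p = 0.0571). The log2 ratio of the cell-surface exporters Abcg2 to Flvcr1 was 0.70 to 0.73 at 0 h, 2.03 and 1.17 at 13 h, and 1.62 and 1.49 at 24 h, and the estradiol libraries were 0.87 higher on average than 0 h (exact p = 0.0571, adjusted p = 0.0571). The G1E libraries, which were not part of these tests, had log2 ratios of 1.80 and 0.67 for Abcg2 to Flvcr1, 1.24 and 0.69 for Abcb10 to Abcb6, and 0.70 and 0.27 for Slc25a37 to Slc25a28. In the Abcg2 to Flvcr1 ratio, 1 of the untreated G1E libraries lay above both 24 h libraries.

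The carriers of other substrates moved in different ways. Slc25a38, the glycine carrier, had 77.8, 81.1 and 67.9 CPM at 0 h, 232 and 232 CPM at 13 h, 199 and 185 CPM at 24 h, and 79.2 and 68.8 CPM in G1E. Both estradiol groups lay above 0 h and G1E, and the 13 h libraries were the highest. It rose by 1.62 ± 0.12 at 13 h (adjusted p = 1.26e-05) and by 1.34 ± 0.12 at 24 h (adjusted p = 1.04e-05), while the difference between 24 h and 13 h, -0.28 ± 0.14, was not called (adjusted p = 0.172), though it was with total counts (-0.56, adjusted p = 0.0173). Slc25a39, the glutathione carrier, had 11.9, 23.3 and 11.5 CPM at 0 h, 4.99 and 7.89 CPM at 13 h, 14.6 and 13.0 CPM at 24 h, and 11.5 and 12.6 CPM in G1E. The 13 h libraries were below all others. The fall at 13 h was -1.27 ± 0.34 (adjusted p = 0.0137), the value at 24 h was -0.18 ± 0.33 from 0 h (adjusted p = 0.664), and the difference between 24 h and 13 h was 1.10 ± 0.36 (adjusted p = 0.0525). Without 13 h replicate 1 the fall was -0.96 and not called (adjusted p = 0.118).

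Among the porphyrin and ABC transporters, Abcb10 had the largest rise of all 9 genes. It had 50.1, 63.7 and 52.9 CPM at 0 h, 693 and 768 CPM at 13 h, 1346 and 1134 CPM at 24 h, and 71.0 and 53.8 CPM in G1E. Every estradiol library lay above all libraries of 0 h and G1E. The rise was 3.72 ± 0.16 at 13 h (adjusted p = 7.58e-07) and 4.48 ± 0.17 at 24 h (adjusted p = 1.66e-07), or 13.1-fold and 22.3-fold. The further gain between 13 h and 24 h was 0.76 ± 0.17 (adjusted p = 0.0125), and it was not called without 13 h replicate 1 (0.71, adjusted p = 0.0664), without 24 h replicate 1 (0.62, adjusted p = 0.0526) or with total counts (0.47, adjusted p = 0.0559). Tmem14c, the porphyrin-handling protein, had 49.3, 72.4 and 59.4 CPM at 0 h, 355 and 332 CPM at 13 h, 444 and 513 CPM at 24 h, and 48.1 and 44.1 CPM in G1E. It rose by 2.51 ± 0.16 at 13 h (adjusted p = 5.08e-06) and 2.99 ± 0.16 at 24 h (adjusted p = 6.44e-07), and the step between 13 h and 24 h was not called (0.48 ± 0.17, adjusted p = 0.0695). Abcb6 had 44.2, 44.2 and 49.6 CPM at 0 h, 42.2 and 71.2 CPM at 13 h, 78.9 and 70.1 CPM at 24 h, and 30.0 and 33.4 CPM in G1E. Its 13 h libraries fell on either side of 0 h (0.30 ± 0.20, adjusted p = 0.262), and without 13 h replicate 1 this was a called rise (0.65, adjusted p = 0.0174). Compared with 0 h, its rise at 24 h was 0.70 ± 0.20 (adjusted p = 0.0127). That call was lost without 24 h replicate 1 (0.61, adjusted p = 0.0770) with total counts (0.31, adjusted p = 0.215) and with runs of adjacent library numbers in the titles as a block, called the title number block below (0.59, adjusted p = 0.0972).

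Of the exporters at the cell surface, Abcg2 had 104.8, 109.6 and 102.7 CPM at 0 h, 220.2 and 191 CPM at 13 h, 300.3 and 354 CPM at 24 h, and 204 and 137 CPM in G1E. The 0 h libraries were the lowest, below G1E too. Abcg2 rose by 0.96 ± 0.16 at 13 h (adjusted p = 0.00124) and 1.63 ± 0.16 at 24 h (adjusted p = 1.87e-05), with a step of 0.67 ± 0.18 between 13 h and 24 h (adjusted p = 0.0259). That step was not called without 13 h replicate 1 (0.79, adjusted p = 0.0509), 13 h replicate 2 (0.57, adjusted p = 0.129) or 24 h replicate 2 (0.54, adjusted p = 0.138), nor with total counts (0.38, adjusted p = 0.127). Flvcr1 had 63.3, 67.6 and 63.1 CPM at 0 h, 54.0 and 85.2 CPM at 13 h, 97.7 and 125.7 CPM at 24 h, and 58.3 and 86.5 CPM in G1E. It rose by 0.79 ± 0.22 at 24 h (adjusted p = 0.0107), and its value at 13 h was 0.11 ± 0.22 (adjusted p = 0.731). The 24 h call was lost without 24 h replicate 2 (0.61, adjusted p = 0.0983) and with total counts (0.40, adjusted p = 0.160).

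**Figure D2:**
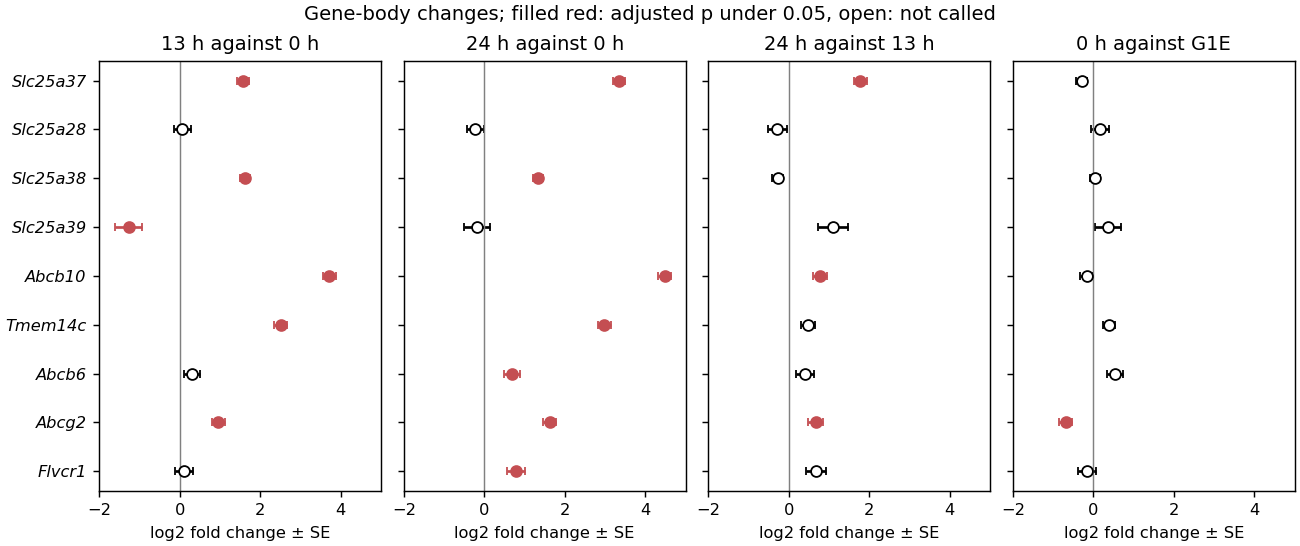
Log2 fold changes of gene-body reads (points, with SE as bars) of the 9 genes in 4 comparisons, filled red where the adjusted p was under 0.05. At 24 h against 0 h, 7 genes were called higher and none lower, and at 0 h against G1E the only call was Abcg2.

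The timing of the rise was compared by setting the step between 13 h and 24 h against the step between 0 h and 13 h. The second step lasts 11 h and the first 13 h. Both are on the log2 scale, so they do not measure the gain in CPM. Mean Abcb10 CPM was 55.6 at 0 h, 730 at 13 h and 1240 at 24 h. No run of adjacent library numbers holds both a 13 h and a 24 h library. A direct comparison of 13 h with 24 h therefore cannot tell time from run. The title number block links these times only through 0 h libraries. Of the 9 genes, 3 had a smaller second step, where 4.83% of all tested genes were called lower and 2.52% higher. These were Abcb10 (-2.95 ± 0.28, adjusted p = 0.000411), Tmem14c (-2.03 ± 0.28, adjusted p = 0.00293) and Slc25a38 (-1.89 ± 0.22, adjusted p = 0.00128). For Slc25a37 the steps differed by 0.21 ± 0.27 (adjusted p = 0.681), and for Slc25a39 by 2.37 ± 0.64 (adjusted p = 0.0546). With the title number block, the smaller second step was called for Abcb10 alone (-2.83, adjusted p = 0.0413), while Tmem14c (-2.03, adjusted p = 0.129) and Slc25a38 (-1.60, adjusted p = 0.0984) lost their calls. That block left 33 calls lower and 5 higher over all tested genes, against 668 and 349 without it. The 24 h against 13 h comparison called 3 of the 9 genes higher (Slc25a37, Abcb10 and Abcg2) and none lower, where 11.7% of all tested genes were called higher and 12.5% lower. Slc25a37 alone kept its call with that block (1.89, adjusted p = 0.0489). Over all 13825 tested genes the block left 22 calls higher and 37 lower in this comparison, against 1617 and 1732 without it.

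Before estradiol, G1E-ER4 differed from G1E in 1 of the 9 genes, where 9.58% of all tested genes were called lower and 7.88% higher. Abcg2 was lower at 0 h by 0.69 on the log2 scale (-0.69 ± 0.16, adjusted p = 0.0162). The call was lost without G1E replicate 1 (-0.37, adjusted p = 0.182) and without 0 h replicate 3 (-0.67, adjusted p = 0.0584). The other 8 differences lay between -0.29 for Slc25a37 and 0.54 for Abcb6 (adjusted p = 0.211 and 0.110).

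The library numbers in the titles run close together for some libraries of different groups, and they give pairs outside the group means. For Abcb10 the 13 h library with a number next to a 0 h library was 3.79 and 3.59 higher on the log2 scale in the 2 such pairs. The 24 h libraries were 4.67 and 4.42 higher than the 0 h library of their own run of numbers. For Slc25a37 these values were 1.30 and 1.73 at 13 h and 3.32 and 3.49 at 24 h. For Slc25a39 they were -1.26 and -1.56 at 13 h and 0.34 and 0.17 at 24 h. For Abcb6 and Flvcr1 the 13 h pairs had opposite signs, at -0.07 and 0.69 and at -0.23 and 0.33.

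The dREG entries were read by strand and place. Of the 31 tested entries, 17 rose and 1 fell at 13 h, where 15.2% of all 35158 tested entries were called higher and 18.6% lower, and 19 rose and 3 fell at 24 h, where 22.7% were called higher and 29.5% lower. By the authors' location classes, all 8 entries of the sense class inside a gene, whole peaks among them, rose at both times, as did 3 of the 4 antisense ones. Of 10 entries at starts, 4 rose and 1 fell at 13 h, and 5 rose and 2 fell at 24 h. Of 9 tested intergenic entries, 2 rose at 13 h, and 3 rose and 1 fell at 24 h. At 24 h against 13 h, 5 entries were called higher and none lower, where 5.28% of all tested entries were called higher and 7.82% lower. At 0 h against G1E, 3 were called lower and none higher, where 12.1% were called lower and 7.18% higher. The second step was smaller than the first for 10 entries and larger for none, where 6.05% were called lower and 1.66% higher. Only 4 of these calls were made without 13 h replicate 1, and 6 without 13 h replicate 2 or 24 h replicate 1. With the title number block 4 entries were called, among them the sense entry 6.4 kb upstream of Abcb10 (-2.36, adjusted p = 0.0447). That entry was not among the 10. Entries on the sense strand inside a gene can also hold polymerase that started at the gene's own promoter. Entries on the antisense strand upstream of a start can likewise hold polymerase that left that start in the opposite direction. Those reads and reads of initiation at the peak cannot be told apart, and entries of 1 gene are not independent of each other.

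**Figure D3:**
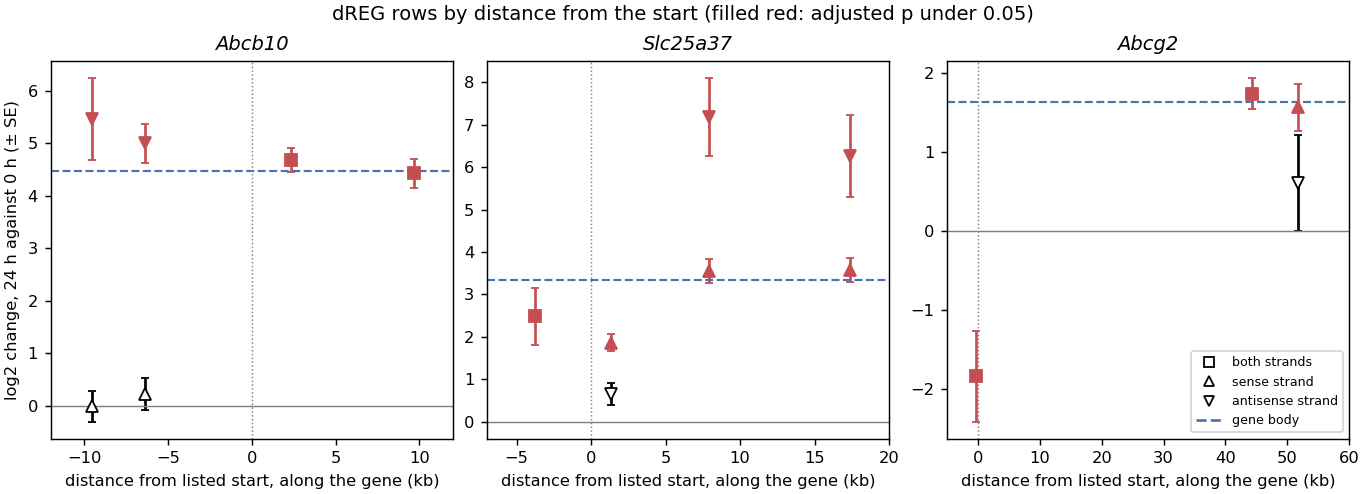
Log2 change of dREG entries at 24 h against 0 h (± SE) by distance of the peak's centre from the listed start, for Abcb10, Slc25a37 and Abcg2, with the gene-body change as a dashed line and called entries filled red. Antisense entries 6.4 kb and 9.6 kb upstream of Abcb10 changed by 5.0 and 5.46 while their sense partners stayed near 0, and the Abcg2 entry at the listed start fell by 1.84.

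At Abcb10, which lies on the minus strand of chromosome 8, the start peak had 55.6, 72.7 and 73.1 CPM at 0 h, 878 and 857 CPM at 13 h, 1570.0 and 1872 CPM at 24 h, and 82.8 and 68.6 CPM in G1E. It rose by 3.69 ± 0.22 at 13 h (adjusted p = 1.46e-07) and 4.68 ± 0.23 at 24 h (adjusted p = 1.39e-08), close to the gene body. This start peak is 8051 bases wide and runs from -1679 to 6372 bases around the listed start. Its reads can be counted in the gene body too, so the values are not independent of each other. A peak 6.4 kb upstream, at chr8:126512300-126514501 (mm9, as the deposited table lists it), had a called rise on its antisense strand. Its antisense entry had 2.14, 2.64 and 1.36 CPM at 0 h, 69.3 and 53.8 CPM at 13 h, 39.5 and 90.5 CPM at 24 h, and 4.69 and 3.51 CPM in G1E. It rose by 4.92 ± 0.37 at 13 h (adjusted p = 1.23e-06) and 5.0 ± 0.37 at 24 h (adjusted p = 4.39e-07), and the second step was smaller (-4.85 ± 0.58, adjusted p = 0.000315), a call lost with the title number block (-3.79, adjusted p = 0.126). The sense entry had 11.9, 24.3 and 30.8 CPM at 0 h, 32.5 and 39.0 CPM at 13 h, 26.7 and 25.5 CPM at 24 h, and 25.8 and 26.4 CPM in G1E, with changes of 0.68 ± 0.30 and 0.23 ± 0.31 that were not called (adjusted p = 0.102 and 0.559). The 13 h rise of the sense entry was called in 5 of 16 alternatives: with total counts (0.80, adjusted p = 0.0420), without 0 h replicate 3 (1.00, adjusted p = 0.0316), with gene-body scaling (0.93, adjusted p = 0.0353), with the replicate number as a block (1.02, adjusted p = 0.0176) and with the title number block (1.06, adjusted p = 0.00326). The difference between the strands was not itself tested. The antisense share of the peak's reads was 4.24% to 15.3% at 0 h, 58.0% and 68.1% at 13 h, 59.6% and 78.0% at 24 h, and 15.4% and 11.8% in G1E.

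A smaller peak 9.6 kb upstream of Abcb10, at chr8:126516300-126516851 (mm9), also had a called rise on its antisense strand. Its antisense entry held 8, 4 and 18 reads at 0 h, 217 and 75 reads at 13 h, 166 and 536 reads at 24 h, and 8 and 13 reads in G1E. The rise was 4.07 ± 0.77 at 13 h (adjusted p = 0.00186) and 5.46 ± 0.78 at 24 h (adjusted p = 0.000147), while the sense entry changed by -0.02 ± 0.29 and -0.01 ± 0.29. The table names Mir1967 beside Abcb10 for both upstream peaks. Whether antisense reads at these peaks came from the Abcb10 start was not tested. Nup133, named beside Abcb10 at the start peak, had a gene-body change of 0.39 ± 0.13 at 13 h (adjusted p = 0.0352) and -0.20 ± 0.13 at 24 h (adjusted p = 0.212).

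At Slc25a37, on the minus strand of chromosome 14, antisense entries inside the gene were on average close to their 24 h level at 13 h, while the gene body was not. The 2 libraries of 13 h differed, at 140.0% and 61.6% of the 24 h mean for the entry 7.9 kb inside. The antisense entry 7.9 kb inside, at chr14:69894050-69896401 (mm9), held 0, 1 and 0 reads at 0 h, 83 and 44 reads at 13 h, 55 and 63 reads at 24 h, and 3 and 0 reads in G1E. The ratio of 13 h to 0 h was 204-fold with a 95% counting interval of 35.9 to 8111, and that of 24 h to 0 h was 208-fold (36.5 to 8265). The antisense entry 17.4 kb inside, at chr14:69885050-69886501 (mm9), held 0, 1 and 0 reads at 0 h, 39 and 25 reads at 13 h, 35 and 28 reads at 24 h, and 0 reads in both G1E libraries. Its ratios were 103-fold (17.8 to 4119) at 13 h and 111-fold (19.2 to 4445) at 24 h. The second step was smaller than the first for both entries (-7.21 ± 1.30, adjusted p = 0.00386, and -6.12 ± 1.38, adjusted p = 0.0167), while for the gene body the steps differed by 0.21 ± 0.27. Both calls were lost with the title number block (-4.16 and -3.09, adjusted p = 0.993 and 0.983) and without 13 h replicate 1 (-5.80 and -5.09, adjusted p = 0.0625 and 0.165). The difference between these entries and the gene body was not itself tested.

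The sense strand of the Slc25a37 start peak was called at 24 h and not at 13 h. It had 20.9, 22.2 and 19.6 CPM at 0 h, 25.8 and 27.4 CPM at 13 h, 65.7 and 85.5 CPM at 24 h, and 18.9 and 23.7 CPM in G1E. Its change was 0.35 ± 0.20 at 13 h (adjusted p = 0.203) and 1.86 ± 0.20 at 24 h (adjusted p = 6.94e-06), with 1.51 ± 0.23 between 13 h and 24 h (adjusted p = 0.00214). Reads of that entry per gene-body read were 0.188, 0.171 and 0.143 at 0 h, 0.0938 and 0.0746 at 13 h, and 0.0663 and 0.0612 at 24 h, so the gene body gained more than the start. The antisense strand at the start had changes of 0.03 ± 0.27 and 0.65 ± 0.26 (adjusted p = 0.945 and 0.0510). A weak peak 3.8 kb upstream rose by 2.49 ± 0.67 at 24 h (adjusted p = 0.00686) and was lower at 0 h than in G1E by 2.66 ± 0.68 on the log2 scale (-2.66, adjusted p = 0.0127), from 14, 3 and 6 reads at 0 h and 64 and 15 reads in G1E. The 24 h call was lost without 24 h replicate 2 (1.89, adjusted p = 0.0774), and the call against G1E without G1E replicate 1 (-2.35, adjusted p = 0.145).

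**Figure D4:**
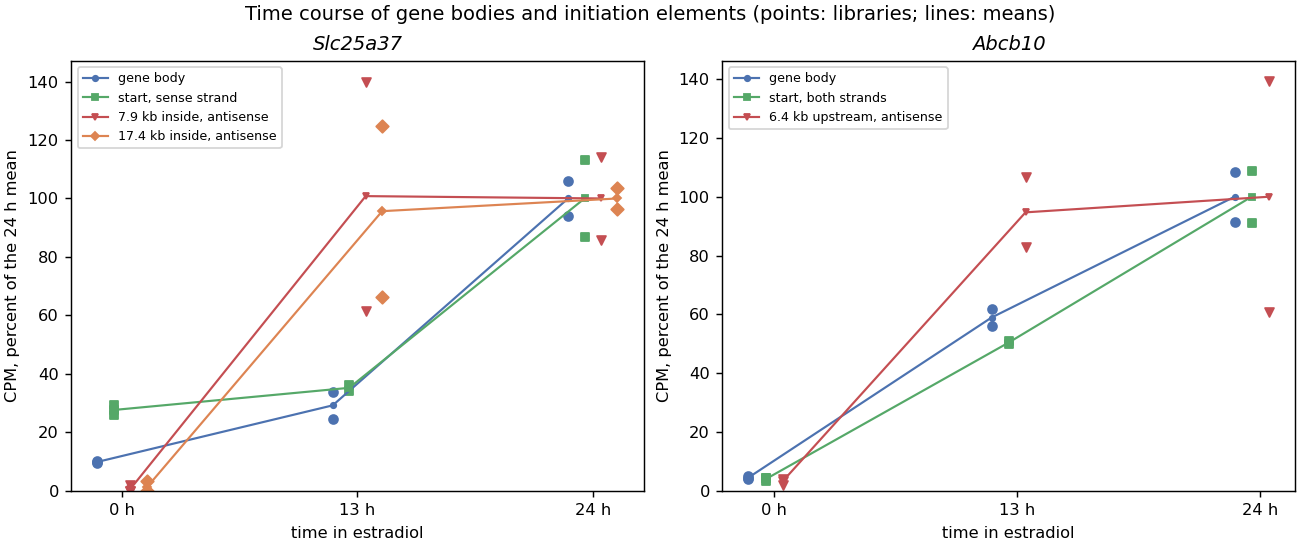
CPM of gene bodies and dREG entries of Slc25a37 and Abcb10 as a percent of their own mean at 24 h, with libraries as points and group means as lines. At 13 h the Slc25a37 gene body stood at 29.2% and its sense-strand start at 35.2%, while the antisense entries inside the gene stood at 101% and 95.7%.

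At Abcg2, on the plus strand of chromosome 6, the listed start and the gene body moved in opposite directions. The start peak had 3.16, 1.27 and 0.964 CPM at 0 h, 1.13 and 0.911 CPM at 13 h, 0.615 and 0.372 CPM at 24 h, and 5.09 and 3.12 CPM in G1E. It fell by 1.84 at 24 h (-1.84 ± 0.57, adjusted p = 0.0150), and this was not called without 0 h replicate 1 (-1.17, adjusted p = 0.0642), without 24 h replicate 2 (-1.37, adjusted p = 0.146) or with the title number block (-0.95, adjusted p = 0.181). A peak 44.3 kb downstream, at chr6:58589150-58592851 (mm9), had 40.9, 32.1 and 33.5 CPM at 0 h, 113 and 106 CPM at 13 h, 105 and 131 CPM at 24 h, and 55.9 and 43.0 CPM in G1E. It rose by 1.63 ± 0.19 at 13 h (adjusted p = 3.43e-05) and 1.74 ± 0.19 at 24 h (adjusted p = 8.41e-06), and its second step was smaller (-1.52 ± 0.35, adjusted p = 0.0164), a call lost without 13 h replicate 1 or 2, without 24 h replicate 1 and with the title number block (adjusted p from 0.0629 to 0.125). Its span, from 42484 to 46185 bases after the listed start, covers the 43874 bases that separate start 3 from start 2 of Abcg2 in RefSeq, whose sequences are printed above. Since the builds differ, this compares spacings and not positions, and which RefSeq start the listed start is was not tested.

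Of the remaining Abcg2 entries, the sense strand of a peak 51.7 kb inside the listed gene rose by 0.84 ± 0.30 at 13 h (adjusted p = 0.0439) and 1.56 ± 0.30 at 24 h (adjusted p = 0.000654). The 13 h call was lost without any 1 library of 0 h or 13 h, with adjusted p from 0.0516 to 0.282. A peak 160.7 kb from the start, also tied to Herc3, held 8, 0 and 1 reads at 0 h against 73 and 15 reads in G1E. It was lower at 0 h than in G1E (-4.08 ± 1.05, adjusted p = 0.0140), but not without G1E replicate 1 (-3.65, adjusted p = 0.171). The gene body of Herc3 was also lower at 0 h than in G1E (-3.83 ± 0.76, adjusted p = 0.00646). The antisense strand at 51.7 kb and the minus strand of a peak at 177.0 kb were not called in any comparison, and the plus strand of that last peak, with 1 to 4 reads per library, was not tested.

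At Slc25a39 the start was called lower at both times, and the gene body at 13 h. The start peak had 209, 325 and 281 CPM at 0 h, 75.3 and 121 CPM at 13 h, 96.2 and 68.5 CPM at 24 h, and 182 and 219 CPM in G1E. It fell by 1.47 at 13 h (-1.47 ± 0.26, adjusted p = 0.000856) and by 1.72 at 24 h (-1.72 ± 0.27, adjusted p = 0.000132). The estradiol libraries lay below all others at both times. Start reads per gene-body read were 8.23, 5.81 and 8.85 at 0 h, 7.09 and 7.46 at 13 h, 3.30 and 2.11 at 24 h, and 7.04 and 6.31 in G1E, and the 24 h libraries lay below all others, a difference that was not itself tested. The peak is also tied to Mir6930, whose listed start is 2530 bases away.

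At the starts of Tmem14c and Slc25a38, reads of engaged polymerase rose, as in the gene bodies, which can hold the same reads. The Tmem14c start rose by 2.07 ± 0.21 at 13 h (adjusted p = 1.12e-05) and 2.54 ± 0.22 at 24 h (adjusted p = 9.29e-07), and a peak 3.9 kb inside by 2.29 ± 0.25 and 2.86 ± 0.26 (adjusted p = 1.83e-05 and 1.36e-06). Both strands of a peak 14.3 kb from the Tmem14c start, inside Mak, also rose, by 1.82 ± 0.39 and 2.83 ± 0.50 at 13 h and by 3.10 ± 0.39 and 2.23 ± 0.51 at 24 h for the plus and the minus strand. The gene body of Mak rose by 3.23 ± 0.53 and 3.21 ± 0.53. The Slc25a38 start rose by 1.00 ± 0.17 at both times (adjusted p = 0.000589 and 0.000277), and a peak 5.5 kb inside by 2.01 ± 0.19 at 13 h and 1.41 ± 0.19 at 24 h (adjusted p = 6.26e-06 and 4.40e-05). The table ties that inner peak also to Rpsa, which encodes a ribosomal protein and whose gene body fell by 0.86 at 13 h (-0.86 ± 0.25, adjusted p = 0.0205) and fell by 2.35 at 24 h (-2.35 ± 0.27, adjusted p = 4.38e-05). A further Abcb10 peak, 9.7 kb inside the gene, rose by 3.91 ± 0.27 and 4.43 ± 0.28 (adjusted p = 5.61e-07 and 9.15e-08).

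Peaks tied to more than 1 gene, such as those at the Abcb6, Slc25a28 and Flvcr1 starts, cannot be assigned to 1 gene. The peak at the Abcb6 start, tied also to Atg9a, which encodes an autophagy membrane protein, rose by 0.82 ± 0.20 at 13 h (adjusted p = 0.00609) and 1.54 ± 0.20 at 24 h (adjusted p = 2.86e-05), and the 13 h call was lost without 13 h replicate 2 (0.50, adjusted p = 0.137). The gene body of Atg9a rose by 1.17 ± 0.17 and 2.74 ± 0.17, that of Abcb6 changed by 0.30 ± 0.20 and 0.70 ± 0.20. The Slc25a28 start, tied also to BC037704, was at 147 to 211 CPM in all estradiol and 0 h libraries and was not called (-0.11 ± 0.17 and 0.26 ± 0.17, adjusted p = 0.668 and 0.225), while the gene body of BC037704 rose by 0.70 ± 0.20 at 24 h (adjusted p = 0.0126). A plus-strand entry 4.9 kb upstream of Slc25a28 fell by 1.30 at 24 h (-1.30 ± 0.34, adjusted p = 0.00529), which was lost without 24 h replicate 1 (-1.14, adjusted p = 0.0573). The minus strand of that peak was lower at 0 h than in G1E (-1.84 ± 0.61, adjusted p = 0.0473), a call lost in every alternative setting. The Flvcr1 start, tied also to A230020J21Rik, was not called at 13 h or 24 h (-0.27 ± 0.20 and 0.27 ± 0.19, adjusted p = 0.318 and 0.264).

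Genes of the pathway around these transporters were read from 5 lists at 24 h against 0 h. Of 9 haem synthesis enzymes, 8 rose, beside 29.0% of all tested genes, and none fell, beside 30.7%, with a median log2 change of 1.56 beside -0.07 over all genes. Alas2, the erythroid enzyme that uses the glycine, had 582 ± 166 CPM at 24 h (SD, n = 2) against 0.903 ± 0.330 CPM at 0 h (SD, n = 3) and rose by 9.34 ± 0.55. Fech, which inserts the iron, rose by 2.48 ± 0.22 and Urod, an enzyme of the cytosolic steps, by 2.25 ± 0.20. Of 16 genes of iron-sulfur cluster assembly and mitochondrial iron handling, 7 rose and 3 fell, beside 29.0% and 30.7% of all tested genes, with a median of 0.15. Glrx5, a cluster carrier, rose by 2.14 ± 0.29, while Fdx1l, a ferredoxin, fell by 2.21 (-2.21 ± 0.35).

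Of 9 tested genes among other haem and iron transporters and their carriers, 3 rose and 4 fell, beside 29.0% and 30.7% of all tested genes, with a median of -0.40. The transferrin receptor gene Tfrc rose by 2.23 ± 0.17 and Clpx, whose product acts on the Alas enzymes, by 1.53 ± 0.17, while the haem transporter gene Slc48a1 fell by 1.61 (-1.61 ± 0.16). Of 6 genes of haem breakdown and sensing, 3 rose, beside 29.0% of all tested genes, and none fell, beside 30.7%, with a median of 1.26: Bach1, a haem-binding repressor, by 4.13 ± 0.21, Eif2ak1, the haem-regulated kinase, by 3.42 ± 0.18, and Blvrb, a biliverdin reductase, by 2.12 ± 0.14. Of 7 tested near relatives of the 9 transporters, 1 rose and 2 fell, no larger a share than the 29.0% and 30.7% of all tested genes, with a median of -0.17. Abcb9 rose by 3.25 ± 0.17, Abcg4 fell by 0.84 (-0.84 ± 0.20) and Slc25a40, the closest relative of Slc25a39, fell by 0.60 (-0.60 ± 0.21).

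The genes with the most similar course over the 9 libraries were found by the root mean square difference of centred log2 CPM among 10564 genes. For Abcb10 they were Sgsm3 (0.21) and Ube2l6 (0.23), for Tmem14c Nfatc2ip (0.16) and Rpgrip1l (0.18), and for Slc25a37 Crebrf and Atg9a (0.26 each). For Slc25a38 they were Isca2 (0.15), a gene of iron-sulfur assembly, and Sec61g (0.16). For Slc25a39 they were Socs3 (0.18) and Hn1 (0.19), and Socs3 changed by -0.995 at 13 h and -0.16 at 24 h. For Abcg2 they were Dmxl1 (0.10) and Usp46 (0.12), for Abcb6 Hs1bp3 (0.11) and Hsf2 (0.15), for Flvcr1 Cbr1 (0.19) and Pank3 (0.20), and for Slc25a28 Mfap3 and Ahsa2 (0.09 each). The measure describes the course and uses the same libraries as the tests.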

How the data were processed

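The deposited gene-body table and dREG peak table hold raw read counts in 9 libraries, per the file headers. The peak table also gives a peak's position along its gene as a percent, as the authors deposited it. The submitters' processing notes name BWA and mm9. What is not given in the sources used here is the version of BWA, how reads were counted, on which annotation, and whether gene bodies were counted by strand, so reads of overlapping or antisense genes cannot be told apart.

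Counts were fitted over all 9 libraries with edgeR 4.0.16 in R 4.3.3, with 4 group means, TMM scaling, filterByExpr and a robust quasi-likelihood fit (residual degrees of freedom 5), on 13825 genes and 35158 dREG entries that passed the filter. P-values were adjusted by Benjamini-Hochberg over all of them, with a threshold of 0.05. SE was taken as the size of the log2 fold divided by the root of F. For groups with 1 to 3 reads, the ratio of reads is given with a 95% counting interval, which covers counting error only. Ratios of 2 genes used log2 of read counts plus 0.5 and an exact permutation test (SciPy 1.17.1). The fit was tested on simulated data.

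The 9 genes and all lists were chosen with earlier results of these data known. Named are the 9 genes, their dREG entries, up to 3 called genes per list with the largest change at 24 h, and the 2 most similar genes of each with a mean of at least 50 reads, leaving out predicted or clone names. A list gene that this rule names is not reported here. Alternatives were DESeq2 1.42.0, total counts, no filter, each library left out, only the compared groups, gene-body scaling of dREG counts, and blocks by replicate number or title number. Sequences are RefSeq windows of 250 bases in GRCm38.p6, searched on both strands. Replicate numbers did not pair the libraries across all groups: correlations of same-numbered libraries ran from -0.15 to 0.46. Only those of 0 h with 13 h stood out (0.459 and 0.444), and these are also the pairs with adjacent title numbers. The main fit took no account of such pairs, and the title number block did.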

Additional observations from a re-analysis of the deposited data

How the results depend on the processing

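The calls of Abcb10, Tmem14c, Slc25a37, Slc25a38 and Abcg2 at 13 h and at 24 h against 0 h stayed past the threshold in the same direction in all 15 alternatives. No result changed sign while called. With 1 library left out, the number of the 9 genes called was 6 in each case at 13 h and 6 to 7 at 24 h against 0 h, 1 to 5 at 24 h against 13 h (lowest without 13 h replicate 1), 0 to 2 at 0 h against G1E (0 without 0 h replicate 3 or G1E replicate 1), and 3 to 4 for the comparison of the steps. For dREG entries it was 16 to 18, 20 to 23, 3 to 6 (3 without 13 h replicate 1 or 24 h replicate 2) and 0 to 4 (0 without G1E replicate 1) in the same order of comparisons. At 24 h against 13 h, 6 genes were called with DESeq2 and 6 without the expression filter, against 3 as reported, the added ones being Flvcr1, Slc25a39 and Tmem14c. At 0 h against G1E, 2 were called without the filter and 2 with only the compared groups, against 1, with Abcb6 added as higher at 0 h. Without 13 h replicate 2, Abcb6 (0.82) and Flvcr1 (1.05) were called higher at 24 h than at 13 h. With the replicate number as a block, 0 genes were called at 0 h against G1E, where Abcg2 was at -0.66 (adjusted p = 0.0859), and no other count moved by over 1.5 times. At 24 h against 13 h that block added Flvcr1 and Slc25a39 and lost Abcg2. The block by title number left 1 call at 24 h against 13 h, 1 for the steps (Abcb10, while Tmem14c and Slc25a38 were lost) and 2 of 5 dREG entries at 24 h against 13 h. At 24 h against 13 h it called 22 genes higher and 37 lower over all tested genes. For the steps of dREG entries it called 4, against 10 as reported, with the sense entry 6.4 kb upstream of Abcb10 added. The alternatives for the steps of dREG entries were chosen after seeing the data. Their count was 4 to 10 with 1 library left out, 4 of them without 13 h replicate 1, 6 without 13 h replicate 2 and 6 without 24 h replicate 1. Total counts in place of TMM moved the median change of all genes to -0.12 at 13 h and -0.45 at 24 h against 0 h, where 2614 genes were called higher and 5863 lower, against 4014 and 4246 with TMM. Leaving out 1 library gave mean log2 ratio changes of 3.54 to 3.78 for Abcb10 over Abcb6, 0.72 to 1.00 for Abcg2 over Flvcr1 and 2.18 to 3.03 for Slc25a37 over Slc25a28. Depth limits the antisense entries of Slc25a37, with 1 read over the 3 libraries of 0 h, and the intergenic entries of Abcg2 and Slc25a28.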
